A study of Mus musculus with 6 samples.

Results

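The genes examined here set the pace of the first gap phase (G1) of the cell cycle in lungs of male mouse pups. They were chosen by name as the D-type cyclins (Ccnd1, Ccnd2 and Ccnd3), their kinases (Cdk4 and Cdk6), inhibitors of cyclin-dependent kinases (Cdkn1a, Cdkn1b and Cdkn2c) and the retinoblastoma proteins Rb1 and Rbl1. Of these 10 symbols, 9 were matched by a probe of the array table, and no row was named Cdk4, which was not analysed here. The 9 genes had 19 of the 25697 probes. On 15 of these probes, for 8 genes, a signal was detected often enough to be tested, among 13841 such probes in all. All probes of Cdk6 and part of those of Ccnd3 and Cdkn1b were below that filter.

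All samples were lungs of male FVB pups (FVB/N per the study's methods) at postnatal day 6, taken from 3 hSRY-OFF and 3 hSRY-ON pups, with 1 Illumina MouseRef-8 array each. Per the study's methods, hSRY-OFF pups carry a single copy of the Signalox-hSRY transgene in its original form, in which the CAG promoter, active in nearly all cells, drives a red fluorescent protein and human SRY is silent. In hSRY-ON pups, Cre recombinase carried over from the egg of a Ddx4-Cre mother removed the red fluorescent gene at the single-cell stage, which places human SRY and EGFP behind the CAG promoter throughout the body. The hSRY-ON pups chosen for the arrays had not inherited Ddx4-Cre themselves. The study also names littermates without the transgene as controls, so that the transgene status of the hSRY-OFF pups rests on their label. The whole lung was used, so that fewer cells of a type and less RNA per cell cannot be told apart in any value below.

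In G1, D-type cyclins bind Cdk4 or Cdk6, and these kinases phosphorylate Rb1 and its relatives, which releases E2F transcription factors and lets the cell enter DNA synthesis. Inhibitors of the Cip/Kip family (Cdkn1a, Cdkn1b, Cdkn1c) act on several cyclin-dependent kinases, while Ink4 proteins such as Cdkn2c bind Cdk4 and Cdk6 only. In the newborn lung, cell division is frequent while the air sacs are subdivided and then declines, so that genes of this step are usually active at this age.

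Promoter sequence is shown for the 3 genes with the largest changes, taken from RefSeq (build GRCm38.p6). The RefSeq promoter table held 7 of the 10 genes. The 250 bases before each start were searched on both strands for an E2F word (TTTCCCGC, TTTCGCGC, TTTGCCGC or TTTGGCGC), a GC box (GGGCGG) and the p53 half-site consensus. In all 32851 promoters of that table, 1.86% held an E2F word, 32.7% a GC box and 7.13% a p53 half-site. The capitals mark the matches in the sequences, which are written in the direction of transcription and end at the base before the start. The half-site was added to the search after the Cdkn1a sequence had been seen.
Rbl1 (chr2:157204535-157204784, minus strand): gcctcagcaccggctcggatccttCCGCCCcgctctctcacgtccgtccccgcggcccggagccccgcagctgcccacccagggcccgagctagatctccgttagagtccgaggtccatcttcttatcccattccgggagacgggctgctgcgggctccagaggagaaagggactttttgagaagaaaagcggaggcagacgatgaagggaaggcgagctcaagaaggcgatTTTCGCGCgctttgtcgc
Cdkn2c (chr4:109666757-109667006, minus strand): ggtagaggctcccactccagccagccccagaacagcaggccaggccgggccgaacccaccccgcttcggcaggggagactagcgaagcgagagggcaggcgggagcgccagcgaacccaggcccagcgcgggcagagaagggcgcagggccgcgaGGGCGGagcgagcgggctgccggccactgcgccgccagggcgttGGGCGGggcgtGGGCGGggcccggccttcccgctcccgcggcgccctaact
Cdkn1a (chr17:29090729-29090978, plus strand): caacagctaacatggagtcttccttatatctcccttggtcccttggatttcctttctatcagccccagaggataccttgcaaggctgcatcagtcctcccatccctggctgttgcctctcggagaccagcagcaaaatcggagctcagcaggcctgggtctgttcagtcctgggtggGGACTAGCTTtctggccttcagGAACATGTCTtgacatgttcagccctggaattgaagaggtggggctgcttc
The Rbl1 promoter held 1 E2F word, which began 18 bases before the start, and 1 GC box on the other strand. The upstream one of 2 Cdkn2c promoters held 3 GC boxes, and no E2F word was in either. The upstream one of 2 Cdkn1a promoters held 2 p53 half-sites, beginning 73 and 51 bases before the start, and the downstream one (not shown) held 2 GC boxes. None of the marked matches overlap. The array table does not say which start its probes report, and a match is a run of letters, not a measured binding site.

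Between hSRY-ON and hSRY-OFF lungs, 10 of the 15 tested probes passed the threshold, an adjusted p below 0.05 from the two-sided moderated test of limma with the Benjamini-Hochberg method over all 13841 probes. Over all tested probes the share was 26.9%. The genes were chosen with earlier results of these data known, so that an excess over this share is no independent finding. Of the 10, 4 were higher in hSRY-ON (3 of Cdkn1a and 1 of Rb1), where 13.6% of all tested probes were higher. The other 6 were lower (3 of Ccnd1, 2 of Cdkn2c and 1 of Rbl1), where 13.3% of all tested probes were lower. On 11 of the 15 probes all values of 1 group lay above all those of the other, as they did on 46.6% of all tested probes. The median change of the 15 probes was -0.15 on the log2 scale, beside -0.03 for all tested probes. These 15 probes stand for 8 genes, so that they are not independent of each other, and probes of 1 gene are read together below.

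**Figure D1:**
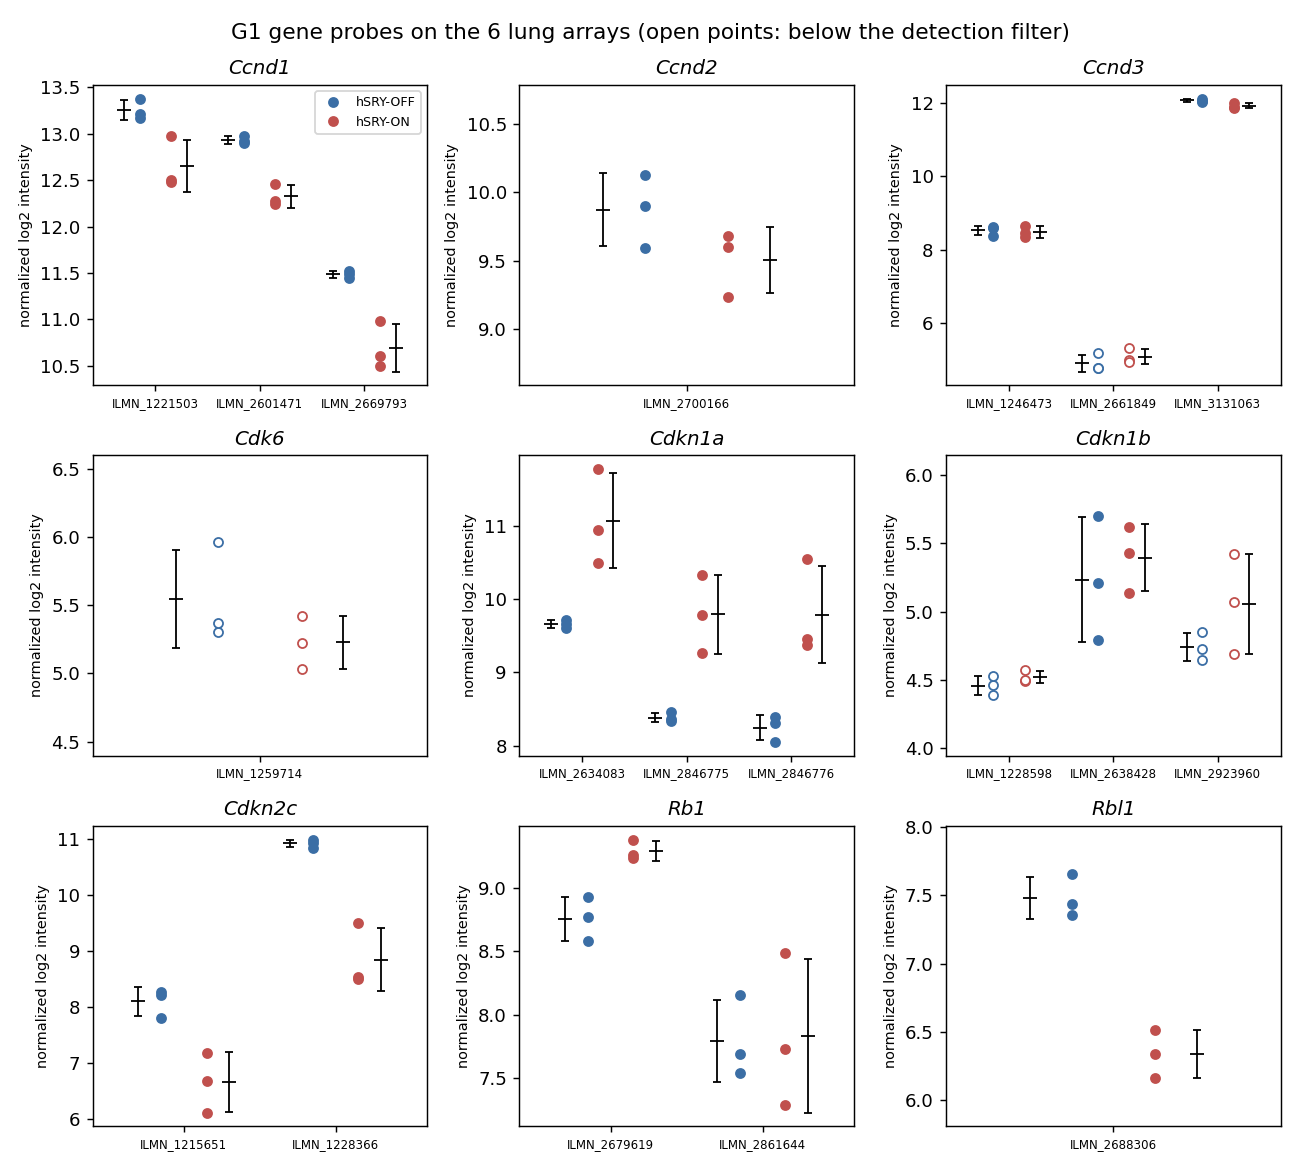
Normalized log2 intensity (vertical axes) of each probe of the 9 genes (horizontal axes) in 3 hSRY-OFF (blue) and 3 hSRY-ON lungs (red), with the mean and SD of each group as black bars and open points for probes below the detection filter. The Cdkn1a points of hSRY-ON lie above, and those of Ccnd1, Cdkn2c and Rbl1 below, all hSRY-OFF points of the same probe.

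Ccnd1, the D-type cyclin that growth factors induce, was lower in hSRY-ON lungs on all 3 probes. On ILMN_2669793 its normalized log2 intensity was 11.45, 11.52 and 11.49 in hSRY-OFF replicates 1, 2 and 3 and 10.49, 10.61 and 10.99 in the hSRY-ON replicates. The hSRY-OFF values lay close together, and all hSRY-ON values lay below them, with replicate 3 the nearest. The log2 change (hSRY-ON minus hSRY-OFF) was -0.79 (standard error 0.15; limma, adjusted p = 0.0114), a level 1.73-fold lower. Probe ILMN_2601471 changed by -0.61 (standard error 0.12; limma, adjusted p = 0.0110). Probe ILMN_1221503 changed by -0.60 (standard error 0.16; limma, adjusted p = 0.0360). On both of these, too, hSRY-ON replicate 3 was the highest of its group, at 12.46 and 12.97, and still below every hSRY-OFF value.

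The call of ILMN_1221503 was lost without hSRY-OFF replicate 1, 2 or 3 and without hSRY-ON replicate 1 or 2 (adjusted p between 0.0663 and 0.112, limma), and with median scaling in place of quantile normalization (limma, adjusted p = 0.124). The call of ILMN_2601471 was lost with median scaling (limma, adjusted p = 0.0506) and without hSRY-OFF replicate 1 (0.0503), and that of ILMN_2669793 without hSRY-OFF replicate 2 (0.0517).

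Ccnd2 and Ccnd3 did not pass the threshold. Ccnd2, a D-type cyclin of many dividing cells, was at 10.13, 9.60 and 9.90 in hSRY-OFF and 9.23, 9.68 and 9.60 in hSRY-ON lungs, so that the groups overlapped. Its log2 change was -0.37, with a 95% interval from -0.81 to 0.07 (limma, adjusted p = 0.181). Ccnd3, the D-type cyclin known from maturing blood and muscle cells, gave changes of -0.15 (interval from -0.40 to 0.11) on ILMN_3131063 and -0.04 (interval from -0.36 to 0.28) on ILMN_1246473, with adjusted p of 0.350 and 0.844 (limma). Its probe ILMN_2661849 was detected on no array. The intervals of Ccnd2 and of both Ccnd3 probes reach 0 and also hold a fall of up to 1.75-fold for Ccnd2 and 1.32-fold for ILMN_3131063. Whether Ccnd1 changed by more than the other D-type cyclins was not tested.

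Cdk6, the only kinase of the group with a row under its symbol, was near the limit of detection. Its probe ILMN_1259714 was detected on 2 hSRY-OFF arrays and on no hSRY-ON array, at 5.31, 5.96 and 5.37 against 5.42, 5.04 and 5.22. It was not tested in the main comparison. With all 25697 probes tested, its log2 change was -0.32, with an interval from -0.79 to 0.15 (limma, adjusted p = 0.389).

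Cdkn1a, the inhibitor that p53 and several stress and hormone signals induce, was higher in hSRY-ON lungs on all 3 probes. On ILMN_2634083 its normalized log2 intensity was 9.66, 9.60 and 9.72 in hSRY-OFF and 10.94, 11.78 and 10.50 in hSRY-ON replicates 1, 2 and 3. The hSRY-OFF values differed little, whereas hSRY-ON replicate 2 stood above both other hSRY-ON values. The log2 change was 1.41 (standard error 0.30; limma, adjusted p = 0.0155), a 2.66-fold rise with a 95% interval from 1.63 to 4.34. On ILMN_2846775 the values were 8.36, 8.34 and 8.45 against 9.79, 10.33 and 9.26, and on ILMN_2846776 they were 8.05, 8.31 and 8.39 against 9.45, 10.55 and 9.37. The groups overlapped on neither probe, and hSRY-ON replicate 2 was again the highest. The changes were 1.41 (standard error 0.25) and 1.54 (standard error 0.31), with adjusted p of 0.00913 and 0.0130 (limma).

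Without hSRY-ON replicate 2, the changes of the 3 Cdkn1a probes were 1.15 (ILMN_2846776), 1.13 (ILMN_2846775) and 1.05 (ILMN_2634083), all with adjusted p of 0.0152 or less (limma). Without hSRY-OFF replicate 1, ILMN_2846776 and ILMN_2634083 missed the threshold (limma, adjusted p = 0.0551 and 0.0579), and ILMN_2634083 also did so without hSRY-OFF replicate 2 (0.0603), while their changes stayed between 1.39 and 1.45. Over the tested probes, 2.01% rose as far as ILMN_2846776 or further in the fitted change.

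Cdkn1b, the inhibitor that holds resting cells out of the cycle, could hardly be measured. Of its 3 probes, ILMN_2638428 was detected on 1 array of hSRY-OFF and 2 of hSRY-ON, and the others on none. The values of ILMN_2638428 were 5.70, 5.21 and 4.79 in hSRY-OFF and 5.13, 5.62 and 5.43 in hSRY-ON lungs, and the groups overlapped. Its log2 change was 0.16, with an interval from -0.42 to 0.74 (limma, adjusted p = 0.658). Its sign turned without hSRY-OFF replicate 3, where the change was -0.06. The array therefore gives no direction for Cdkn1b RNA, and its protein, which is regulated largely by degradation, was not measured.

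Cdkn2c, an Ink4 inhibitor that is itself made in dividing cells, showed the largest change of the 9 genes and was lower in hSRY-ON lungs. On ILMN_1228366 it was at 10.99, 10.93 and 10.85 in hSRY-OFF and 8.54, 8.51 and 9.50 in hSRY-ON replicates 1, 2 and 3. The hSRY-OFF values lay within a narrow range, and hSRY-ON replicate 3 was less low than the other two. The log2 change was -2.08 (standard error 0.27; limma, adjusted p = 0.00313), a 4.22-fold lower level with a 95% interval from 2.73 to 6.52. A fall at least as large was fitted for 0.376% of the tested probes. On ILMN_1215651 the values were 7.81, 8.27 and 8.23 against 6.12, 6.69 and 7.19, again without overlap and with hSRY-ON replicate 3 the highest of its group. That change was -1.44 (standard error 0.28; limma, adjusted p = 0.0110). Its change was -0.77 without background correction (limma, adjusted p = 0.00483). Both calls held in all 17 alternatives, over which ILMN_1228366 ranged from -2.39 to -1.78.

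Cdkn1a and Cdkn2c thus changed in opposite directions, although both encode inhibitors of G1 kinases.

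**Figure D2:**
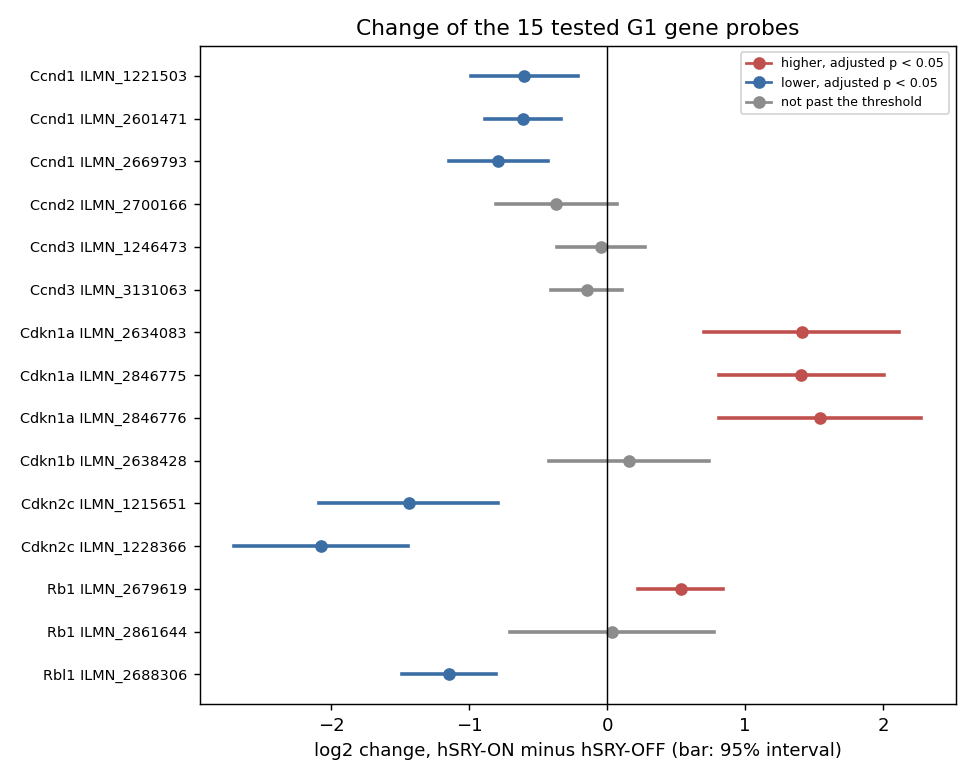
Log2 change from hSRY-OFF to hSRY-ON (horizontal axis) with its 95% interval for the 15 tested probes (vertical axis), in red where higher, blue where lower and grey where the threshold was not passed (limma). The intervals of Ccnd1, Cdkn2c and Rbl1 lie below 0, those of Cdkn1a and of 1 Rb1 probe lie above 0, and those of Ccnd2, Ccnd3, Cdkn1b and the other Rb1 probe cross 0.

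Rb1, the retinoblastoma protein that binds E2F factors and blocks entry into DNA synthesis, gave different results on its 2 probes. On ILMN_2679619 it was at 8.76, 8.93 and 8.58 in hSRY-OFF and 9.38, 9.25 and 9.23 in hSRY-ON lungs. All hSRY-ON values lay above the hSRY-OFF values. The log2 change was 0.53 (standard error 0.13; limma, adjusted p = 0.0256). On ILMN_2861644 the values were 7.69, 7.54 and 8.16 against 8.48, 7.73 and 7.29, and the groups overlapped, with hSRY-ON replicates both highest and lowest. Its change was 0.04, with an interval from -0.70 to 0.78 (limma, adjusted p = 0.941), which also holds the change of the other probe. The difference between both probes was not tested. The call of ILMN_2679619 was lost without hSRY-OFF replicate 1 (limma, adjusted p = 0.0875), hSRY-OFF replicate 3 (0.0848) or hSRY-ON replicate 2 (0.0558), while its change stayed between 0.45 and 0.54 there.

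Rbl1, a relative of Rb1 that represses E2F target genes and is itself switched on by E2F, was lower in hSRY-ON lungs. Its only probe, ILMN_2688306, was at 7.65, 7.35 and 7.43 in hSRY-OFF and 6.33, 6.51 and 6.16 in hSRY-ON lungs. The groups were apart by more than the range within either. The log2 change was -1.14 (standard error 0.14; limma, adjusted p = 0.00295), a 2.21-fold lower level with a 95% interval from 1.75 to 2.80, and it was the smallest p of the 15 probes. The call held in all 17 alternatives. Its size depended on the background correction and was -0.53 without one (limma, adjusted p = 0.00316) and -0.89 with an offset of 50 (0.00193). Its promoter is the one above with an E2F word.

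The probes of other genes nearest to Rbl1 were sought by the root mean square difference of values centred on their mean over the 6 arrays. They were those of Srm, a spermidine synthase (difference 0.05), 9130213B05Rik (0.07) and Rbm10, an RNA-binding protein (0.10). Their changes were -1.15, -1.19 and -1.03 on the log2 scale, with adjusted p of 0.00249, 0.00139 and 0.00303 (limma). As these probes were chosen for likeness to Rbl1 on the same arrays, such changes and p-values follow from the choice. They are no further result.

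**Figure D3:**
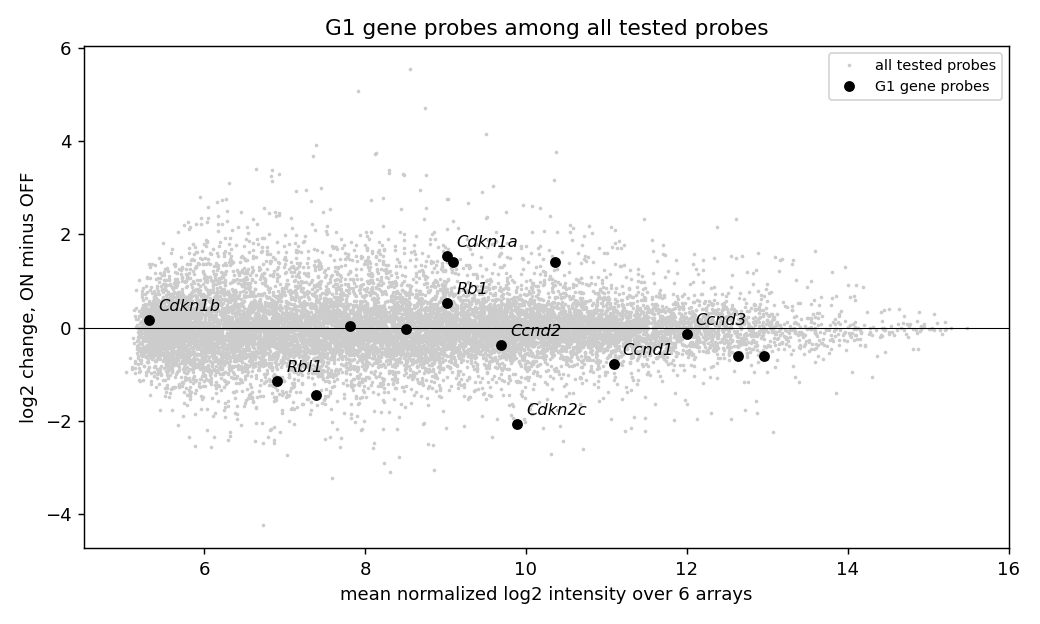
Log2 change from hSRY-OFF to hSRY-ON (vertical axis) against the mean normalized log2 intensity over the 6 arrays (horizontal axis), for all 13841 tested probes (grey) and the 15 probes of the G1 genes (black, with the gene's name at its most changed probe). Cdkn2c lies near the lower edge of the cloud at its intensity and Cdkn1b at the dim end.

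The same comparison was read for the genes around this step, on the brightest tested probe of each gene, where 27.9% of 10292 genes passed the threshold (14.9% higher and 13.0% lower in hSRY-ON) and the median log2 change was -0.01. These lists, too, were chosen with earlier results of these data known. Among 29 other regulators of the G1/S step, 19 were tested, of which 1 rose and 6 fell. Their median change was -0.41. Cdkn1c, the third Cip/Kip inhibitor, rose by 0.87 (limma, adjusted p = 0.00500). Skp2, the ubiquitin ligase subunit that removes Cdkn1b, changed by -1.41 (adjusted p = 0.00500), Ccne2, an E-type cyclin, by -2.04 (0.00537) and E2f1, an activating E2F factor, by -1.03 (0.00687). The Ccne2 probe was detected on 2 hSRY-ON arrays. The calls also held Tfdp1, the E2F partner, at -0.84 and Cdc25a, the phosphatase that activates Cdk2, at -0.69. The remaining one, E2f7, was detected on all 3 hSRY-OFF arrays and no hSRY-ON array, and was at least 1.07-fold lower (limma, adjusted p = 0.0366). E2f7 passed the detection filter only through the group in which it was higher, so that its call is no independent sign of a fall. With detection required on all 6 arrays, 6 genes of this list were called. Ccne1 and Cdk2 had changes of -0.48 and -0.41 and did not pass (limma, adjusted p = 0.114 and 0.0829), and Rbl2 was not tested.

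Among 20 replication genes known as E2F targets, 16 were tested, of which 12 fell and none rose at the threshold. Their median log2 change was -1.05. The helicase subunits Mcm3, Mcm6 and Mcm2 changed by -1.70, -1.44 and -1.41, with adjusted p of 0.00397, 0.00618 and 0.00798 (limma). Among 16 genes of mitosis, 10 were tested, of which 6 fell and none rose, with a median of -1.08. The mitotic cyclin Ccnb1 changed by -1.47, the topoisomerase Top2a by -1.68 and the kinase Plk1 by -1.25, with adjusted p of 0.00782, 0.0130 and 0.0146 (limma). In the promoter table, 1 of 7 G1 genes, 7 of 22 other G1/S regulators, 5 of 17 replication genes and 1 of 13 mitosis genes had an E2F word before a start. A gene counted if any of its promoters held a word, whereas the 1.86% given above is a share of promoters. No share over all genes was made.

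Among 15 targets of p53, the factor known to induce Cdkn1a, 13 were tested, of which 5 rose and 1 fell. Their median change was 0.29. Sesn2, a stress-induced regulator of metabolism, rose by 1.18, the cyclin-like Ccng1 by 0.59 and the death receptor Fas by 0.97 (limma, adjusted p = 0.00963, 0.0162 and 0.0214). Mdm2, the ligase that degrades p53, rose by 0.42 (limma, adjusted p = 0.0364), and Sesn1 also rose. The kinase gene Plk2 changed by -1.80 (limma, adjusted p = 0.00639). The probes of Bax and Bbc3, which promote cell death, had changes of 0.15 and -0.04 (limma, adjusted p = 0.404 and 0.839). Among 8 FoxO targets, 6 were tested and 2 rose, where 14.9% of all tested genes rose and 27.9% were called in either direction. They were Pdk4, a brake on glucose oxidation, by 3.29 and Irs2, an insulin receptor substrate, by 1.12 (limma, adjusted p = 0.00477 and 0.0379). Without hSRY-OFF replicate 1, 2 or 3 the calls were 2, 2 and 3 for p53 targets and 1 each for FoxO targets, and those of mitosis genes were 1, 3 and 3. They were also 3 for mitosis genes without hSRY-ON replicate 2 and 10 without hSRY-ON replicate 3. The calls of replication genes numbered 7 without hSRY-OFF replicate 1.

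**Figure D4:**
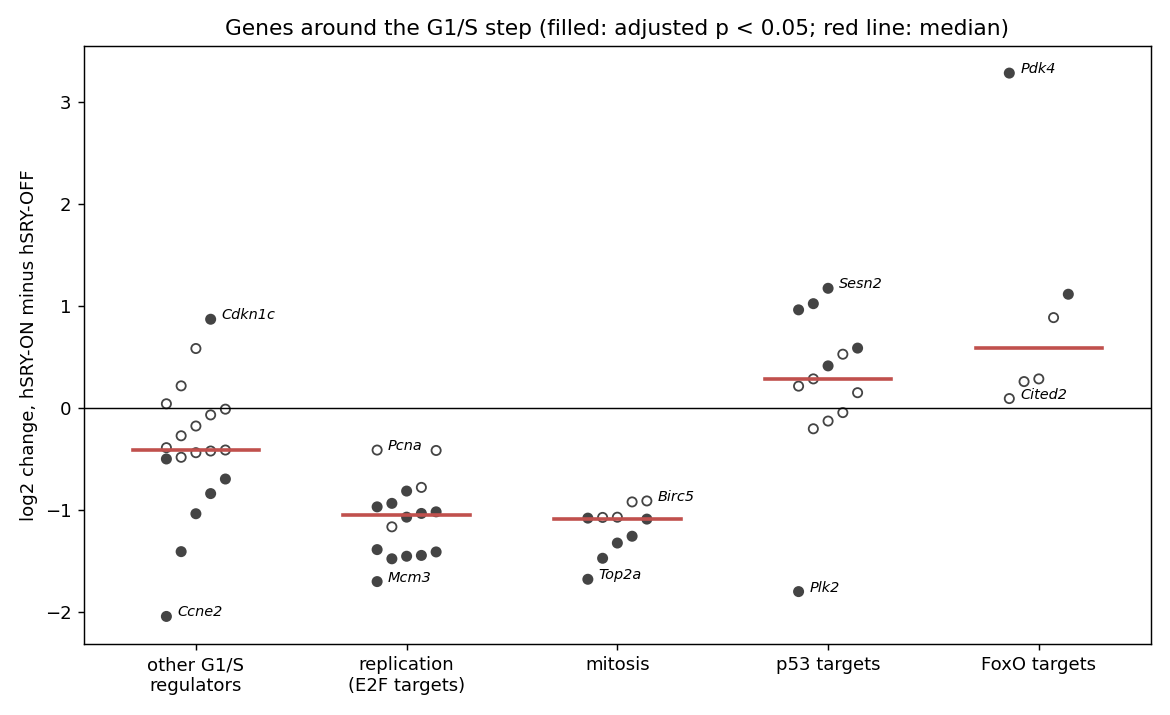
Log2 change from hSRY-OFF to hSRY-ON (vertical axis) of the tested genes of 5 lists (horizontal axis), with filled points past the threshold (limma), open points not past it and a red line at the median. All tested replication and mitosis genes have changes below 0, while p53 targets lie on both sides.

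Markers of cell types that could carry these genes were read beside them. All 8 lung epithelial markers were detected on all 6 arrays, and their summed level (linear scale) was 84007 to 89058 in hSRY-OFF and 86000 to 93342 in hSRY-ON lungs. Over all genes tested, 27.9% were called, 14.9% higher and 13.0% lower, which are the shares to set beside the marker counts here. Of the 8, 2 were called, both higher in hSRY-ON. They were the surfactant protein gene Sftpb, by 0.67, and Foxj1, a factor of ciliated cells, by 1.15 (limma, adjusted p = 0.00798 and 0.00646). Of 6 endothelial markers, 5 were detected, with a summed level of 32921 to 35763 in hSRY-OFF and 21981 to 24455 in hSRY-ON, so that the groups did not overlap, and 3 of the 5 were called lower. Of 10 thymocyte and T cell markers, 6 were tested. Cd3e, Cd3g and Lck were called lower, with changes of -1.74, -1.79 and -1.25 (limma, adjusted p = 0.0112, 0.0373 and 0.0334). Thy1 was called higher, by 0.97 (limma, adjusted p = 0.00270). The immature thymocyte markers Rag1 and Dntt, and Cd4 and Cd8a, were detected on no array. Ptcra, also a marker of immature thymocytes, was detected on all 3 hSRY-OFF arrays and 1 hSRY-ON array, with a change of -0.26 (limma, adjusted p = 0.451). The summed level of the list was 1884 to 2085 in hSRY-OFF and 1134, 1343 and 2096 in hSRY-ON replicates 1, 2 and 3, so that the groups overlapped. Thy1, the only tested marker of the list with a change above 0, was left out after its values were seen, which favours a separation. Without it, the sums were 1438 to 1659 in hSRY-OFF and 344, 508 and 1158 in hSRY-ON replicates 1, 2 and 3, and the groups did not overlap. Replicate 3, the highest of these in both sums, was also the hSRY-ON replicate with the highest Ccnd1 and Cdkn2c values. Rbl1, also called lower, went the other way and had its lowest hSRY-ON value, 6.16, in replicate 3. Over all tested probes, replicate 3 was also the hSRY-ON array nearest to the hSRY-OFF arrays, with correlations of 0.956 to 0.959. Those of hSRY-ON replicates 1 and 2 were 0.947 to 0.955 and 0.935 to 0.939. The match with Ccnd1 and Cdkn2c is therefore not particular to these markers. Of 7 erythroid markers on the array, 6 were tested and 1 was called, higher, and the summed levels of 58172 to 66390 and 58621 to 66195 overlapped. All 7 cardiac muscle markers on the array were tested. Nppa was called higher, by 5.55 (limma, adjusted p = 0.00608). Myl4 and Myl2 were called lower, with changes of -1.94 and -2.59 (limma, adjusted p = 0.00499 and 0.00335), and 4 were not called. Their summed levels were 6534 to 9089 in hSRY-OFF and 3817 to 8463 in hSRY-ON. These sums include Nppa, at 5.11, 5.32 and 6.94 in hSRY-OFF and 12.32, 12.39 and 9.30 in hSRY-ON lungs (log2). A sum without Nppa was not made. The part of any of these cells in the changes of Ccnd1, Cdkn1a, Cdkn2c, Rb1 and Rbl1 was not tested.

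The hSRY-ON arrays varied more than the hSRY-OFF arrays. For tested probes the SD of log2 values had a median of 0.13 among hSRY-OFF and 0.22 among hSRY-ON arrays, and for 12 of the 15 G1 gene probes the hSRY-ON value was the larger one. An array detected 13191 to 14134 probes. The labels name no separate litters or chips, and p-values measure the spread between these 3 pups of each group. For a single probe, the smallest p that an exact permutation test can give with 3 against 3 arrays is 0.1, and the calls draw on a variance estimate to which limma lets all probes contribute.

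**Figure D5:**
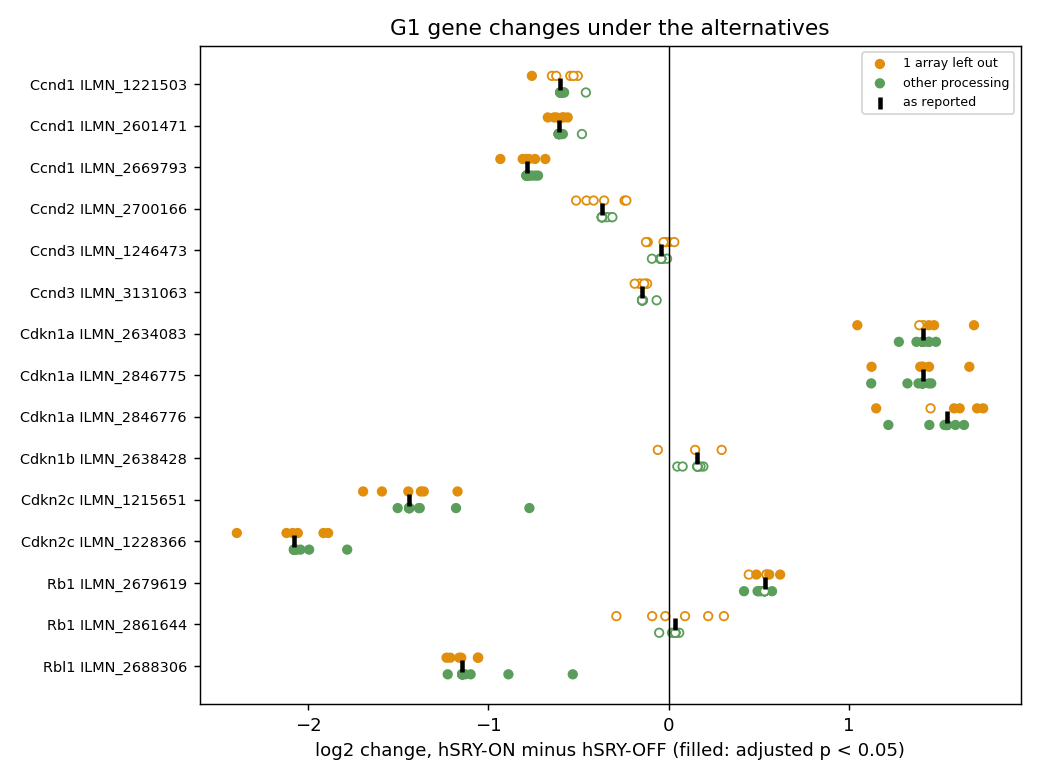
Log2 change from hSRY-OFF to hSRY-ON (horizontal axis) of the 15 probes (vertical axis) as reported (black bar), with 1 array left out (orange) and with other processing (green), filled where the adjusted p was under 0.05 (limma). The called probes keep their side of 0 in every fit, and all fits of Rbl1 and of both Cdkn2c probes are filled.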

How the data were processed

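Per the labels, total RNA of 6 lungs was made into biotin-labelled cRNA for Illumina arrays (MouseRef-8 v2.0 per the study's methods). The authors deposited, for each probe and array, an intensity (mean bead signal, linear scale, neither background-corrected nor normalized) and a detection p-value against the negative controls of the array. The summary software is not given in the sources used here. The study's methods name the R package TCC, a count method, and the submitters' processing notes name limma. As the values are intensities, limma 3.58.1 in R 4.3.3 was used.

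The background was estimated from the deposited detection p-values (normexp), an offset of 16 was added, and the log2 values were quantile-normalized. Quantile normalization removes overall shifts, and the offset compresses changes of dim probes. A probe was tested if at least 3 of 6 arrays gave it a detection p below 0.05. The 2 groups were compared by lmFit and eBayes with no covariate, adjusting over all 13841 probes at a threshold of 0.05. An array was left out before its data were normalized anew. Older gene symbols were matched through RefSeq synonyms, except for the 10 symbols studied. The members and lists were chosen with earlier results of these data known. From each list, up to 3 called genes of smallest p in each direction were named, plus Ccne1, Ccne2, Cdk2, E2f1, Cdkn1c, Rbl2 and Mdm2 whatever their result. Tfdp1, Cdc25a, E2f7, Sesn1, Bax and Bbc3 were added after their values were seen. For a gene detected on no array of 1 group, the bound sets the mean of the other group against the higher, per array, of its own and the lowest detected signal. The summed marker level adds normalized linear signals less the offset.

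The steps were tested on simulated arrays of this comparison, of which 16076 probes passed the filter. Of 100 probes changed by 2 on the log2 scale 84% were called, and of 100 changed by 1, 12%, all with the right sign. Of 99 calls, 3 were on unchanged probes. Only these 2 sets of 100 probes were changed, whereas 26.9% of tested probes were called in the data. The Benjamini-Hochberg threshold was therefore stricter in the simulation, and its shares do not give the power or the false calls of the real comparison. No 2 arrays held identical values.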

Additional observations from a re-analysis of the deposited data

How the results depend on the processing

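One of the 17 alternatives, weights estimated per group, was added after seeing the data. The number of probes called over the whole array, 3729, ranged from 1507 to 4385 when 1 array was left out. The numbers were 1507, 1624 and 2104 on leaving out hSRY-OFF replicate 1, 2 or 3 and 2397 for hSRY-ON replicate 2. The 10 calls among the G1 gene probes became 5 to 10 on leaving out an array, with 5 without hSRY-OFF replicate 1, and 8 to 10 under the other alternatives. Fewer arrays leave fewer degrees of freedom, and why some arrays weigh more was not tested. On leaving out an array, called genes numbered 5 to 9 among other G1/S regulators (7 in all arrays), 7 to 15 among replication genes (12), 1 to 10 among mitosis genes (6), 2 to 7 among p53 targets (6) and 1 to 3 among FoxO targets (2). Without the detection filter 1 FoxO target was called.

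All 10 called G1 gene probes kept their sign in every fit. Of the uncalled probes, Ccnd3 ILMN_1246473 ranged from -0.13 to 0.03, Rb1 ILMN_2861644 from -0.29 to 0.31 and Cdkn1b ILMN_2638428 from -0.06 to 0.29 on the log2 scale, with either sign and never past the threshold.

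The replicate numbers are shared between the groups, and the labels do not say whether they pair the samples. Same-numbered arrays had correlations of -0.11, 0.10 and -0.09 of their deviations from the group means. With 3 arrays in each group, such values cannot show whether litters or chips were shared. The array closest to hSRY-ON replicate 1 by this measure was hSRY-OFF replicate 3, at 0.16. With the replicate number as a block, 2657 probes were called over the whole array, 9 of the G1 gene probes, 5 other G1/S regulators, 11 replication genes, 4 mitosis genes, 4 p53 targets and 1 FoxO target. The Rb1 probe ILMN_2679619 then had an adjusted p of 0.0564 (limma). Signal over background limits Cdk6, Cdkn1b and 1 Ccnd3 probe, whose absence of a call says nothing on whether they differed.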
